A study of Mus musculus with 8 samples.

Results

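Brg1-only regions are stretches of the mouse genome where both Brg1 libraries of the series had a hotspot and none of the 4 libraries of the other chromatin remodelers had one. A hotspot is an interval that the authors called as enriched for sequence tags after chromatin immunoprecipitation. Hotspots of all 6 deposited lists that overlapped by at least 1 bp were merged into 532751 regions, and 8517 of these, or 1.60%, met the rule. They were chosen by the presence and absence of hotspots in the 6 lists, so any Brg1 height or lack of CHD4 and Snf2h in them is given as a description, with no test. They made up 16.6% of the 51161 replicated Brg1 regions, the merged regions with a hotspot of both Brg1 libraries (95% Wilson interval 16.3% to 17.0%, counting error only). The remaining 42644 replicated Brg1 regions, which also held a CHD4 or Snf2h hotspot, are called other replicated Brg1 regions here. The cells were untreated 3134 cells, an established line of mouse mammary epithelial cells, immunoprecipitated with a monoclonal antibody to Brg1, an antibody to CHD4 or an antibody to Snf2h, 2 libraries each. All groups share this single line, and nothing in the labels says that the libraries of an antibody came from separate cultures. The DNA input libraries, the genes at these coordinates and their sequence were not analysed here, and positions are given on mm9.

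Brg1 is the ATP-driven motor subunit of SWI/SNF complexes, which slide and evict nucleosomes and carry domains that bind acetylated histones. CHD4 is the motor of NuRD, a complex that couples nucleosome remodeling to histone deacetylation. Snf2h is the motor of ISWI complexes, which space nucleosomes evenly. In the 3134 line these enzymes have been studied together with the glucocorticoid receptor, whose binding depends on chromatin that remodelers open or close. A place marked by Brg1 and by neither of the others is one where these lists held a Brg1 hotspot and none of CHD4 or Snf2h. Whether whole NuRD or ISWI complexes were absent there was not measured.

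The absence was scored at unequal depth. Brg1 replicates 1 and 2 gave 115361 and 260036 hotspots. For CHD4 the numbers were 39797 and 293135, and Snf2h gave 32310 and 79969. The lowest Z score, the authors' measure of enrichment, was 9.49 and 2.00 in the Brg1 lists, 8.77 and 2.00 in the CHD4 lists, and 8.60 and 8.50 in the Snf2h lists. Lack of CHD4 in a Brg1-only region therefore means no CHD4 replicate 2 hotspot down to a Z score of 2.00, while lack of Snf2h means only that none reached about 8.5. Sequencing depth cannot be read from the lists.

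Among replicated Brg1 regions, the lists of the other antibodies came in every combination. No other list was present at 8517 regions (16.6%), 1 at 10820 (21.1%), 2 at 9686 (18.9%), 3 at 11696 (22.9%) and all 4 at 10442 (20.4%). CHD4 replicate 2 decided most cases at the edge of the class. Of the 10820 regions kept out by a single other list, 9335 (86.3%) had a CHD4 replicate 2 hotspot, 1018 (9.41%) one of Snf2h replicate 2, 320 (2.96%) one of CHD4 replicate 1 and 147 (1.36%) one of Snf2h replicate 1. CHD4 replicate 2, the longest list, was also the most frequent over all replicated Brg1 regions. The 4 lists were present there at 79.2%, 55.9%, 47.3% and 26.9%, in the same order. In 85.1% of the 9335 regions with CHD4 replicate 2 alone, its hotspot had a Z score below 9.49, the highest of the 6 lists' lowest scores. The median Z score of these CHD4 hotspots was 5.25. Without CHD4 replicate 2 the Brg1-only class held 18028 regions, or 35.0% of replicated Brg1 regions. With 1 Brg1 library standing for both it held 153949 without Brg1 replicate 1 and 58227 without Brg1 replicate 2.

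Regions with hotspots of exactly 2 lists put this number in context. There are 15 pairs of lists, and the Brg1 pair came second. The pair of Brg1 replicate 2 with CHD4 replicate 2, the lists that reach down to a Z score of 2.00, came first with 40064 regions. Brg1 replicate 1 with CHD4 replicate 2 was next with 5572. The CHD4 pair had 793 such regions, which was 2.64% of regions with both CHD4 lists (2.46% to 2.82%), and the Snf2h pair had 710, or 3.93% of regions with both Snf2h lists (3.65% to 4.22%). When all lists were held to a Z score of at least 9.49, or to their 32310 tallest hotspots, the Brg1 pair came first of the 15, with 6472 and 1719 regions. The Snf2h pair then had 1512 and 1472 regions and the CHD4 pair 243 and 611, so at equal list length the Brg1 and Snf2h pairs were close in number. In the taller 50% of each list the Brg1 pair came second, with 4236 regions against 19101 for Brg1 replicate 2 with CHD4 replicate 2. These shares move with the lengths of the lists, and the difference between antibodies was not tested.

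Brg1-only regions were low for replicated Brg1 regions in both Brg1 lists. Height is given as the maximum tag density in a hotspot, in the authors' units, whose scaling is not stated. These values come from the lists that chose the regions and are a description. In Brg1 replicate 1, density in Brg1-only regions ran from 2.32 to 86.3 with a median of 13.9, and in the other replicated Brg1 regions it ran from 2.32 to 647 with a median of 31.8. In Brg1 replicate 2 the range was 1.90 to 58.8 with a median of 3.64 in Brg1-only regions, and 1.90 to 258 with a median of 14.9 in the others. The classes overlapped over the whole range of the Brg1-only regions, but no Brg1-only region came near the tallest of the others. Only 125 Brg1-only regions (1.47%) stood above the median of the others in both lists. Within their own lists the Brg1-only regions were of middling height, at a median percentile of 46.0 in replicate 1 and 54.6 in replicate 2. The median of the mean over both lists was 48.2. It was 31.3 without Brg1 replicate 2, and between 72.7 and 87.0 when only taller or stronger hotspots entered.

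**Figure D1:**
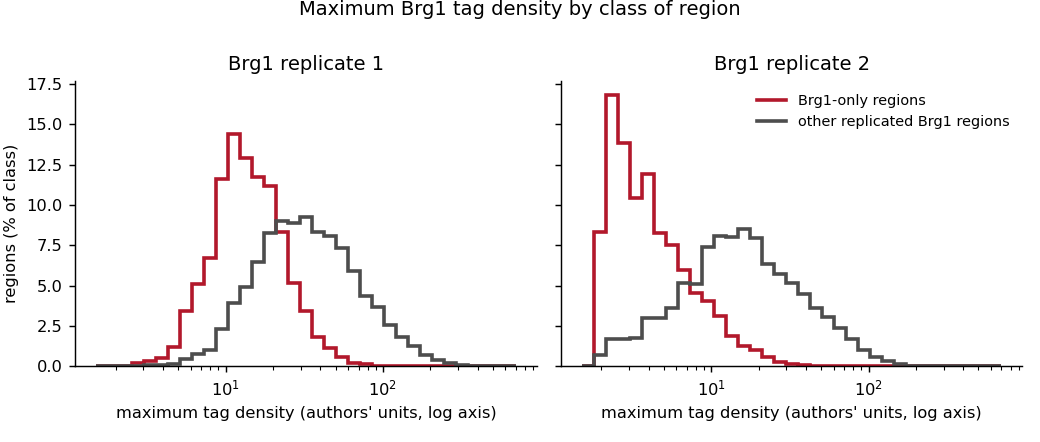
Maximum tag density (log axis, authors' units) in Brg1 replicate 1 and replicate 2, as the percentage of each class per bin of density, for the 8517 Brg1-only regions (red) and the 42644 other replicated Brg1 regions (grey). The Brg1-only medians are 13.9 and 3.64, against 31.8 and 14.9 in the others, and the curves overlap.

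Enrichment in Brg1 replicate 2 was weak in most of the class. The median Z score in Brg1-only regions was 13.7 in replicate 1 and 5.20 in replicate 2, against 24.6 and 21.9 in the other replicated Brg1 regions. In replicate 2, 1675 Brg1-only regions (19.7%, 18.8% to 20.5%) reached a Z score of 9.49, against 34519 of the others (80.9%, 80.6% to 81.3%). Of all Brg1 replicate 2 hotspots 21.0% did, so the Brg1-only regions stood close to the list as a whole. Across the 8517 regions, density ranked alike in both Brg1 libraries to a moderate degree, with a Spearman's rho of 0.64. Over the other replicated Brg1 regions rho was 0.75, and over the 37709 of them that lay inside the Brg1-only range of density in both lists it was 0.67. By Z score rho was 0.23 in Brg1-only regions and 0.68 in the others, and by average density 0.41 and 0.69. With equal list lengths rho by maximum density in Brg1-only regions was 0.26, and with the taller 50% of each list 0.39. Regions share their libraries and are not independent, so these values describe the lists only.

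The share of replicated Brg1 regions that were Brg1-only was far smaller at greater Brg1 height. Regions were put into 10 deciles by the mean of their percentiles in both Brg1 lists. In the lowest decile 3335 of 5116 regions were Brg1-only (65.2%, 63.9% to 66.5%). The share was 41.6% in the second decile, 24.3% in decile 3, 9.70% in the fifth and 1.47% in the eighth. In the highest decile 2 of 5117 regions remained (0.0391%, 0.0107% to 0.142%). The lowest 3 deciles held 6703 Brg1-only regions, 78.7% of the class. Over the same deciles the share with a CHD4 replicate 1 hotspot ran from 3.93% to 96.7%, and that with an Snf2h replicate 1 hotspot from 4.05% to 50.6%. In the lowest decile CHD4 replicate 2 was present at 28.7% of regions and in the highest at 99.8%. A tall Brg1 region without any CHD4 or Snf2h hotspot was rare in these lists.

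**Figure D2:**
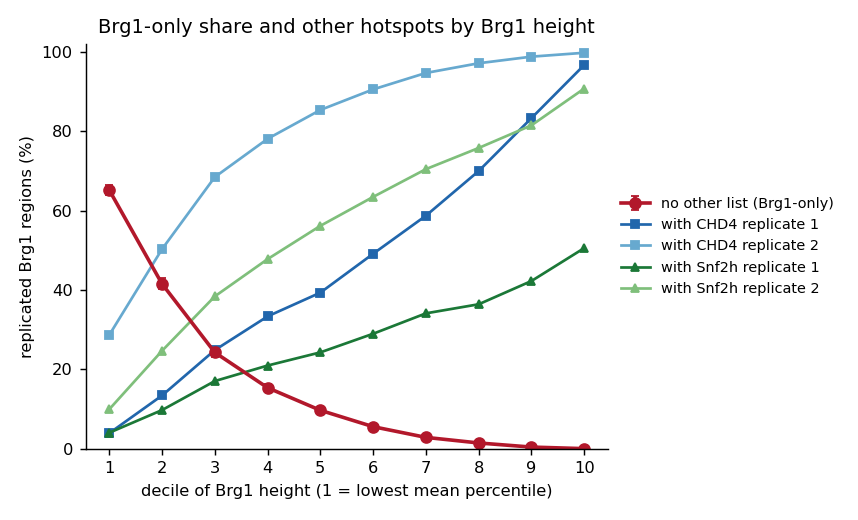
Share of replicated Brg1 regions (%) that were Brg1-only (red, bars are 95% Wilson intervals) or held a hotspot of each CHD4 or Snf2h list, by decile of mean Brg1 percentile from lowest (1) to highest (10). The Brg1-only share runs from 65.2% in the lowest decile to 0.0391% in the highest while every other list gains.

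The tallest Brg1-only regions, ranked by mean percentile in both Brg1 lists, lay on 7 chromosomes for the top 10. The first was chr17:29622111-29623333, with densities of 86.3 in Brg1 replicate 1 and 58.8 in replicate 2. It was 1223 bp wide and lay 158 bp from a CHD4 replicate 2 hotspot. The second, chr6:66977722-66978247, reached 86.3 and 34.9 and lay 492 bp from an Snf2h replicate 2 hotspot. On chromosome 11, chr11:117166706-117167375 reached 77.0 and 37.6 and lay 1645 bp from a CHD4 replicate 2 hotspot. Also on that chromosome, chr11:83656923-83657569 reached 68.9 and 37.6, only 177 bp from a CHD4 replicate 2 hotspot. Farther from other hotspots was chr1:121271624-121272507, at 61.4 and 41.3 and 14619 bp away. Of the other five, chr6:115672193-115673042 had densities of 76.4 and 31.0 and chr2:160087242-160087799 had 77.0 and 27.5. The values at chr15:101921525-101922293 were 78.8 and 24.2, those at chr8:46692220-46692908 were 66.0 and 29.7, and those at chr2:165794353-165794739 were 68.3 and 27.4. Among the 10, 4 lay within 500 bp of a CHD4 or Snf2h hotspot. So did 22.0% of all Brg1-only regions, 37.5% of the other replicated Brg1 regions and 20.4% of all merged regions.

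Members at the limit of the rule ranged from weak to tall in Brg1. The lowest Z score belonged to chr6:119072143-119072550, with 22.1 in replicate 1 but 2.00 in replicate 2, at densities of 17.4 and 2.06. At chr5:98874199-98874978, with Brg1 densities of 11.0 in replicate 1 and 5.06 in replicate 2, a CHD4 replicate 2 hotspot began at the very next base, 1 bp away. A second region at this distance was chr18:87894782-87895185, at 8.11 and 2.21. The next nearest, 2 bp from a CHD4 replicate 2 hotspot, was chr2:127676022-127676717, at 27.2 and 20.1 and with Z scores of 22.9 and 32.4. Just outside the rule, chr11:17935088-17935733 had Brg1 densities of 11.6 and 2.53 and a CHD4 replicate 2 hotspot of density 2.22, whose Z score was 2.00. Its Brg1 densities lay within the range of these members.

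Brg1-only regions were simple, and short only beside the other replicated Brg1 regions. Their median width was 531 bp (range 252 to 1873), against 1059 bp (258 to 8615) in the other replicated Brg1 regions, which span more hotspots by construction. Over all regions with a Brg1 hotspot, replicated or not, the median width was 477 bp for replicate 1 and 450 bp for replicate 2. The Brg1 hotspots themselves were also narrower than in those other replicated regions. Their medians were 348 bp in replicate 1 and 441 bp in replicate 2 in Brg1-only regions, against 519 and 851 bp in the others. Over all regions with a hotspot of the list they were 361 and 418 bp, close to the Brg1-only values. Exactly 1 hotspot of each Brg1 library made up 8398 Brg1-only regions (98.6%), 116 held 3 hotspots and 3 held 4. In those 8398, the hotspots of both libraries overlapped by a median of 256 bp, or 91.4% of the shorter one, and their midpoints lay a median of 93.5 bp apart (quartiles 39.5 and 180 bp). The midpoints of the 33963 other regions with 1 hotspot of each Brg1 library lay 79 bp apart (35.5 and 163.5 bp). The shared stretch reached 50% of the shorter hotspot at 80.7% of Brg1-only regions and at 95.7% of the others. The widest Brg1-only region was chr11:61086227-61088099, at 1873 bp, with densities of 26.1 and 10.6. The median width was 349 bp without Brg1 replicate 1 and 310 bp without Brg1 replicate 2.

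CHD4 and Snf2h hotspots were rarely far away from Brg1-only regions, and the same held for all merged regions. The nearest one lay a median of 1783 bp from the edge of a Brg1-only region and 1882 bp from that of any merged region. It lay 885 bp from the edge of the other replicated Brg1 regions, where only hotspots outside the region were counted. Within 1 kb there was such a hotspot for 3008 Brg1-only regions (35.3%, 34.3% to 36.3%) and for 22474 of the others (52.7%, 52.2% to 53.2%). Over all merged regions the figure was 33.8%, close to that of the Brg1-only regions. Within 10 kb it was 93.9% of Brg1-only regions, 96.6% of the others and 93.3% of all merged regions. The nearest hotspot was one of CHD4 replicate 2, the longest list, at 81.5% of Brg1-only regions and at 83.1% of the others. Without CHD4 replicate 2, the share of Brg1-only regions with a neighbour within 1 kb was 15.9%. It was 15.8% at a common Z score, 14.4% at equal list length and 16.1% with hotspots merged across gaps of up to 500 bp. With gaps merged, no Brg1-only region could by construction have a neighbour within 500 bp. Of the 8517, 22.0% had one, and of all merged regions 20.4% did. The most isolated Brg1-only region, chr1:95817514-95817893, lay 84578 bp from any CHD4 or Snf2h hotspot and had low densities of 8.69 and 2.37.

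**Figure D3:**
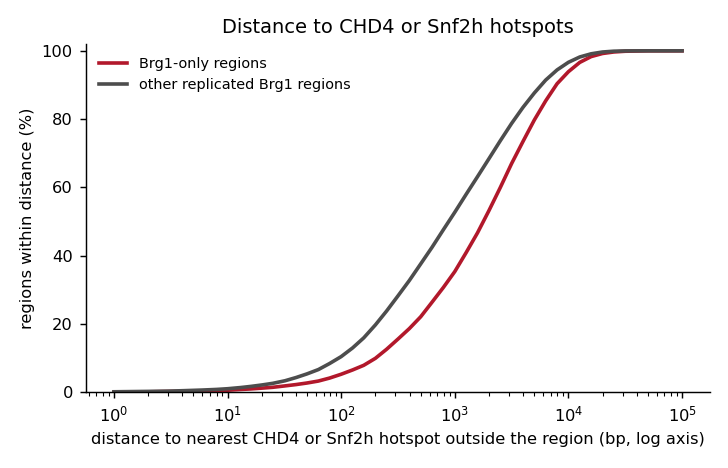
Cumulative percentage of regions against the distance (bp, log axis) to the nearest CHD4 or Snf2h hotspot outside the region, for Brg1-only regions (red) and other replicated Brg1 regions (grey). At 1 kb the curves stand at 35.3% and 52.7%, and at 10 kb at 93.9% and 96.6%.

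The gap between both classes in near neighbours was also seen within most deciles of Brg1 height. Heights inside a decile were not matched, and the lowest decile spans mean percentiles of 1.19 to 40.1. In the lowest decile of Brg1 height, 31.5% of Brg1-only regions and 37.0% of the other replicated Brg1 regions had a CHD4 or Snf2h hotspot within 1 kb. In the fifth decile the shares were 38.7% and 50.2%, and in the eighth, with 75 Brg1-only regions, 34.7% and 55.3%. Brg1-only regions had the lower share in deciles 1 to 9, and in decile 10 both of its 2 Brg1-only regions had such a neighbour. The values that follow compare whole classes and were not divided by height. Where a neighbour lay within 1 kb, its median percentile of density in its own list was 49.5 beside Brg1-only regions and 71.8 beside the others. Regions with all 6 lists lay farther from Brg1-only regions, at a median of 105916 bp. From replicated Brg1 regions with 1 to 3 other lists the median was 39869 bp. A region of all 6 lists lay within 10 kb of 9.97% of Brg1-only regions and 21.3% of those others. Hotspots of a single Brg1 list and no other had one within 10 kb at 5.43% for replicate 1 and 8.29% for replicate 2, below the Brg1-only class. None of these differences was tested, since neighbouring regions and the lists they come from are not independent.

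The nearest Brg1-only region was about as far from a Brg1-only region as from another replicated Brg1 region. Another Brg1-only region was found within 10 kb of 8.77% of Brg1-only regions and of 9.38% of the other replicated Brg1 regions. The median distances to the nearest Brg1-only region were 89512 and 89386 bp. A replicated Brg1 region with other lists lay within 10 kb of 33.0% of Brg1-only regions and of 57.7% of those other regions.

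All 20 chromosomes carried Brg1-only regions, between 1.37 per Mb on X and 4.18 per Mb on chromosome 2. Chromosome 11 was second at 3.91 per Mb, and chromosome 14 was the lowest autosome at 2.70 per Mb. The order followed that of replicated Brg1 regions in part, with a Spearman's rho of 0.84 over the 20 chromosomes, which share their libraries. Brg1-only regions are counted among the replicated Brg1 regions, so some of this likeness is built in. The share of replicated Brg1 regions that were Brg1-only ran against the number of replicated Brg1 regions per Mb. Those regions are also the denominator of the share, so the 2 are not independent. The lowest share was on chromosome 11, which had the most replicated Brg1 regions per Mb, at 13.1% (465 of 3549 regions, 12.0% to 14.3%). The highest share was on X, which had the fewest, at 19.5% (224 of 1151, 17.3% to 21.8%). Chromosome 18 followed at 18.9% and chromosome 12 at 18.6%, while chromosome 7 had 14.3% and chromosome 19 had 14.5%.

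**Figure D4:**
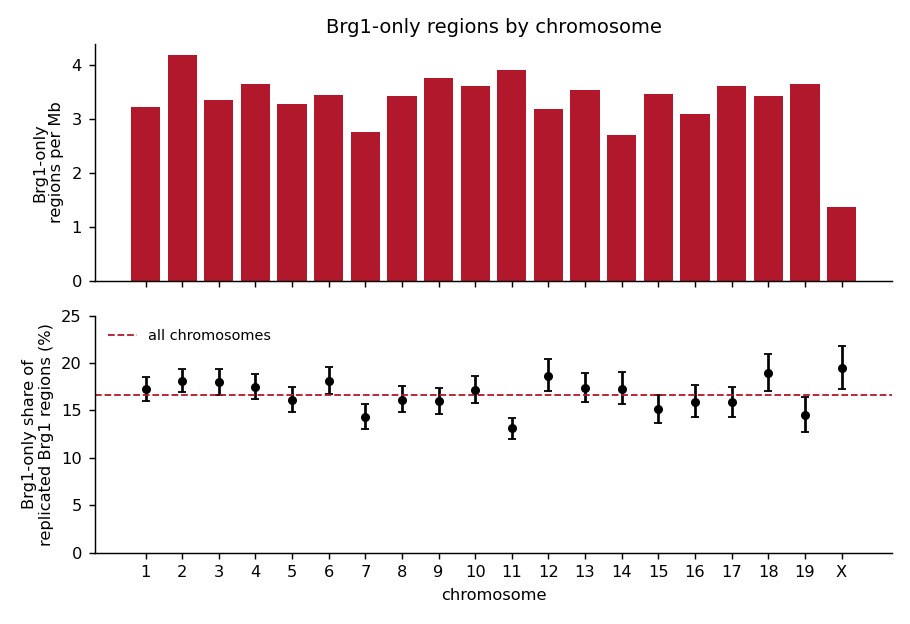
Brg1-only regions per Mb (top, bars) and their share of replicated Brg1 regions in % (bottom, points with 95% Wilson intervals, dashed line for all chromosomes) on the 19 autosomes and X. Density is lowest on X at 1.37 per Mb, where the share is highest at 19.5%, and the lowest share is 13.1% on chromosome 11.

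Relative to the autosomes, X carried 0.399 times the density of Brg1-only regions and 0.340 times that of all replicated Brg1 regions. Without Brg1 replicate 2 the class, then 58227 regions of a single Brg1 list, had 0.922 times the autosomal density on X. Without Brg1 replicate 1 the figure was 0.490 over 153949 regions. Only 14.7% and 5.57% of these regions, in that order, overlapped one of the 8517. Why the figures differed was not tested. At equal list length, the 32310 tallest hotspots of each library, the figure with all 6 lists was 0.130 from 15 regions on X. X then ranked 11 of 20 by Brg1-only share. The taller 50% of each list gave 0.219. Chromosome 11 kept the lowest share of the 20 chromosomes when any single library was left out, and ranked 12 of 20 with the 32310 tallest hotspots.

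Within chromosomes the Brg1-only regions were spread thinly. Of 2489 fixed windows of 1 Mb with a replicated Brg1 region, 169 (6.79%) had no Brg1-only region, the median was 3 and the highest was 12, reached in 4 windows. In the 1758 windows with at least 10 replicated Brg1 regions, the median Brg1-only share was 15.4%, and 90% of windows lay between 3.57% and 40.0%. In 46 of those windows the share was 50% or more. The window of highest share was chr5:126000001-127000000, where 12 of 13 replicated Brg1 regions were Brg1-only (92.3%, 66.7% to 98.6%) and no region held all 6 lists. Other windows with 12 Brg1-only regions had shares of 34.3% at chr10:61000001-62000000 and 32.4% at chr4:125000001-126000000. Shares of 80.0%, from 8 of 10 regions each, were found at chr4:52000001-53000000 and chr7:143000001-144000000.

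The window on chromosome 5 had a usual number of Brg1 hotspots and few of the short lists. It was chosen by its Brg1-only share, which favours few CHD4 and Snf2h hotspots, so the latter is a description. Replicated Brg1 regions were fewer than usual, 13 against 20.4 per Mb on the whole chromosome. Brg1 had 48 and 108 hotspots there, against genome means of 44.8 and 101 per Mb. CHD4 had 4 and 123 hotspots, against means of 15.4 and 114, and Snf2h had 6 and 12, against 12.5 and 31.0. The 12 Brg1-only regions had densities of 7.53 to 24.9 with a median of 10.4 in Brg1 replicate 1, and of 2.06 to 6.48 with a median of 3.00 in replicate 2. The tallest in replicate 1 was chr5:126058908-126059475 at 24.9, with 3.80 in replicate 2, and the tallest in replicate 2 was chr5:126309564-126310167 at 6.48, with 8.11 in replicate 1. In 2 of the 12 the Z score in replicate 2 reached 9.49. Their nearest CHD4 or Snf2h hotspots lay 575 to 10310 bp away, with a median of 2114 bp. The only replicated Brg1 region of the window with another list, chr5:126761527-126762293, had Brg1 densities of 12.7 and 12.8 and a CHD4 replicate 2 hotspot of 3.95.

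Because all 6 lists chose the class, it was also rebuilt from 1 list per antibody and read in the lists left out. Replicate numbers only divide the lists here and pair no libraries. In replicate 1, 80406 regions had a Brg1 hotspot and none of CHD4 or Snf2h. Of these, 30.4% (30.1% to 30.7%) had a Brg1 hotspot in replicate 2, against 47.2% of all regions with a Brg1 replicate 1 hotspot. CHD4 replicate 2 was found at 26.0% (25.7% to 26.3%) and Snf2h replicate 2 at 10.4% (10.1% to 10.6%) of the same 80406. Brg1 without either of the others, the full rule, was met at 10.6%. Brg1 replicate 2 was also found at 46.1% (45.0% to 47.1%) of the 8512 regions chosen as CHD4 alone in replicate 1, and at 23.4% (22.7% to 24.2%) of the 13370 chosen as Snf2h alone. A region chosen as Brg1 alone in replicate 1 was marked by CHD4 in replicate 2 nearly as often as by Brg1.

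In the other direction, 155560 regions were Brg1 alone in the replicate 2 lists. Brg1 replicate 1 marked 5.79% of them (5.68% to 5.91%), against 20.2% of all regions with a Brg1 replicate 2 hotspot. CHD4 replicate 1 marked 0.675% (0.635% to 0.717%) and Snf2h replicate 1 marked 0.703% (0.663% to 0.746%), both shorter lists than Brg1 replicate 1. Brg1 replicate 1 marked 3.08% (3.00% to 3.16%) of the 186348 regions chosen as CHD4 alone in replicate 2. At the 27279 regions chosen as Snf2h alone its share was 5.55% (5.29% to 5.83%), whose interval overlaps that of the regions chosen as Brg1 alone. Without CHD4 replicate 2 in the choice, the share of regions chosen as Brg1 alone that Brg1 replicate 1 marked was 10.6%.

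The shares were also read at equal list length, a choice made after the full lists had been seen. This matches the number of hotspots and not their thresholds, since Snf2h replicate 1 is then kept whole and the other lists are not. Of 9857 regions chosen as Brg1 alone in replicate 1, Brg1 replicate 2 marked 48.5% (47.5% to 49.5%), CHD4 replicate 2 34.8% (33.9% to 35.7%) and Snf2h replicate 2 28.5% (27.6% to 29.4%). In the 6689 regions chosen as CHD4 alone the Brg1 share was 35.1%, and in the 16272 chosen as Snf2h alone it was 3.47%. Of 7460 regions chosen as Brg1 alone in replicate 2, Brg1 replicate 1 marked 41.0% (39.9% to 42.1%), CHD4 replicate 1 30.1% (29.1% to 31.1%) and Snf2h replicate 1 9.66% (9.01% to 10.4%). There the Brg1 share was 10.4% in regions chosen as CHD4 alone and 15.3% in those chosen as Snf2h alone.

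Other thresholds gave another order. At a common Z score, Brg1 replicate 2 marked 15.7% of regions chosen as Brg1 alone in replicate 1, 27.0% of those chosen as CHD4 alone and 8.45% of those chosen as Snf2h alone. Brg1 replicate 1 marked 41.4%, 10.3% and 12.5% of the regions chosen in the same ways in replicate 2. In the taller 50% of each list the Brg1 replicate 2 shares were 61.3% for Brg1 alone, 79.9% for CHD4 alone and 59.6% for Snf2h alone, and the Brg1 replicate 1 shares were 6.99%, 1.52% and 7.78%. In both directions and under these 4 settings, regions chosen as Brg1 alone were marked more often by the held-out Brg1 list than by the held-out CHD4 or Snf2h list. That order was not particular to them. With the full lists, Brg1 replicate 1 marked 3.08% of regions chosen as CHD4 alone, and CHD4 replicate 1 marked 0.506%. At regions chosen as Snf2h alone, Brg1 replicate 2 marked 23.4% and Snf2h replicate 2 20.4%. In the other direction these shares were 5.55% and 3.72%. Regions chosen as CHD4 alone in replicate 1 went the other way, with 46.1% for Brg1 and 48.8% for CHD4. With the full lists, at a common Z score and in the taller 50%, however, the held-out Brg1 replicate 2 list marked regions chosen as CHD4 alone more often than regions chosen as Brg1 alone, so a held-out Brg1 hotspot did not single out regions chosen as Brg1 alone.

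When the hotspot threshold was raised, both the number of Brg1-only regions and which regions counted as Brg1-only changed. At a common Z score of 9.49 there were 6472 such regions, of which 1675 (25.9%) were among the 8517, and 19.7% of the 8517 remained. By construction, the rest of the 6472 lay in full-list regions that held a CHD4 or Snf2h hotspot. At equal list length 318 of 1719 regions (18.5%) were among the 8517, which was 3.73% of them. With the taller 50% of each list, 2958 of 4236 (69.8%) were, or 34.7% of the 8517. Changes in how overlap was scored kept more of the class. An overlap of 50% of the shorter hotspot kept 80.7% of the 8517, merging across gaps of up to 500 bp kept 75.3%, and windows of 500 bp kept 94.9%.

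**Figure D5:**
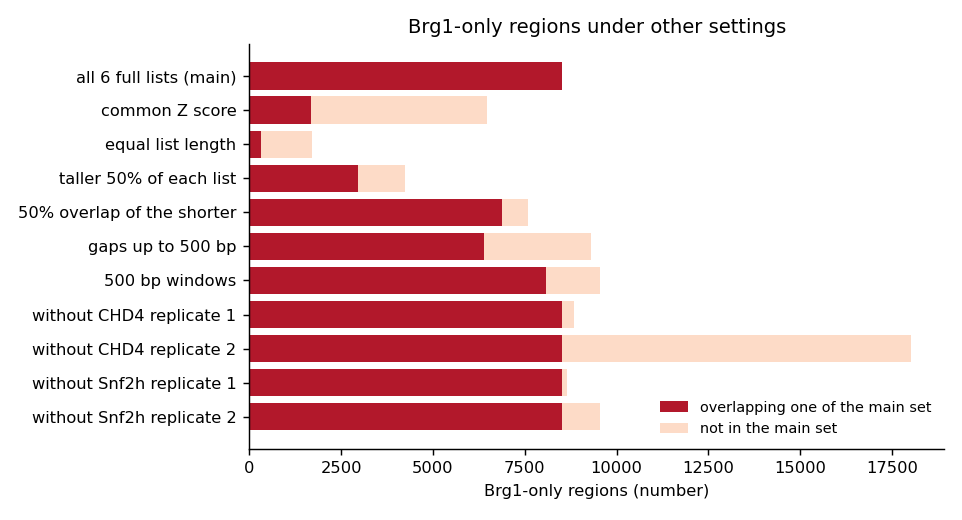
Number of Brg1-only regions with all 6 full lists and under 10 other settings, divided into regions that overlap one of the 8517 (dark) and regions that do not (pale). The count runs from 1719 at equal list length to 18028 without CHD4 replicate 2, and the dark part is smallest at equal list length (318).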

How the data were processed

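The authors called hotspots in each library and deposited for each hotspot a signal, its maximum and average tag density, in units that no source explains. The deposited lists also give a score, the Z score of enrichment, and a p-value, per the file headers, and the p-value was not used. Reads were placed on mm9 and CASAVA 1.6 was used, per the submitters' processing notes. How hotspots were called, and whether input was used, is not given in the sources at hand. The protocol in the labels is one of DNase I digestion and does not describe the immunoprecipitation.

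Intervals were read as closed. Hotspots of the 6 lists were merged at 1 bp of overlap, and a region took the highest density and Z score of each list. Percentiles were ranks of maximum density within a list. Distances run from region edge to hotspot edge, and chromosome lengths are the spans of the hotspots. Python 3.11.15, numpy 2.4.6, scipy 1.17.1, pandas 2.3.3 and matplotlib 3.10.9 were used. Merging and distances were tested on simulated data. With 2 libraries an antibody and regions that are not independent, no p-value was computed, and 95% Wilson intervals cover counting error only.

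The class and its measures were chosen with earlier results of these data known. Named regions followed a rule: the 10 tallest, 3 widest, 3 most isolated, 3 nearest to another hotspot and 3 of lowest Z score, the 3 just outside, and 1 Mb windows by number and share, from which examples are given. Replicate numbers were not used to pair libraries. Annotation and sequence of mm9 were not used here.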

Additional observations from a re-analysis of the deposited data

How the results depend on the processing

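Moving the thresholds changed most values, and the cause was not tested. At a common Z score, equal list length and the taller 50% of each list, in that order, the Brg1-only share of replicated Brg1 regions was 17.9%, 7.74% and 10.8%, and the number of regions was 1719 at equal list length and 4236 in the taller 50%. The share of regions that were Brg1 alone in replicate 1 and had Brg1 in replicate 2 was 15.7%, 48.5% and 61.3%, and in the other direction 41.4%, 41.0% and 6.99%. The share with a CHD4 or Snf2h hotspot within 1 kb was 15.8%, 14.4% and 29.2%, the median percentile of height was 78.0, 87.0 and 72.7, rho was 0.61, 0.26 and 0.39, and the median width was 699, 736 and 604 bp. X density relative to autosomes was 0.130 at equal list length and 0.219 in the taller 50%.

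With an overlap of 50% of the shorter hotspot, gaps of up to 500 bp and 500 bp windows, in that order, the Brg1-only share was 15.5%, 17.5% and 17.8%, and the share read in replicate 2 was 27.5%, 36.8% and 33.1%. Read in replicate 1 it was 4.86%, 8.28% and 6.83%. The share within 1 kb was 42.1% with the 50% overlap, where CHD4 or Snf2h hotspots that overlapped the region were also counted. It is not comparable with the 35.3% of the 8517 regions, which counts only hotspots outside the region. With gaps the share was 16.1%, the median percentile 40.9 and rho 0.60. Merged gaps leave no neighbour within 500 bp by construction. Median widths were 658 bp with gaps and 620 bp with windows. Limits of 500 bp and 2 kb gave 22.0% and 53.2% with a neighbour, against 20.4% and 51.7% over all merged regions. Relative to all replicated Brg1 regions, X held 1.17 times its share. By average density and Z score, rho was 0.41 and 0.23.

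Leaving out 1 library at a time gave 8663 to 153949 or, with both Brg1 libraries kept, 8663 to 18028 regions. The Brg1-only share was 16.9% to 60.6%, the share read in replicate 2 was 30.4% to 39.9% and in replicate 1 5.79% to 10.6%. Other ranges were 15.9% to 35.3% within 1 kb, percentiles of 31.3 to 63.4, X densities of 0.354 to 0.922, rho of 0.64 to 0.71 and widths of 310 to 598 bp. No paired analysis was possible because the values come from no test between groups. The unequal lowest Z scores and unknown depth limit every statement of absence.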

Other observations

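Some stretches rich in Brg1 had no Brg1-only region. The one with the most replicated Brg1 regions, chosen after its values were seen, was chr7:52000001-53000000, where 60 replicated Brg1 regions included 0 Brg1-only regions (95% Wilson interval up to 6.02%) and 9 regions held all 6 lists. Among windows of 1 Mb with at least 10 replicated Brg1 regions, 39 had no Brg1-only region. Across the 2489 windows the number of Brg1-only regions and the number of other replicated Brg1 regions had a Spearman's rho of 0.39, a description of windows that share libraries.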
